A study of Mus musculus with 2 samples.

Results

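The genes described here are 10 genes of the elastic fibre, Eln, Fbn1, Fbn2, Fbln1, Fbln5, Lox, Loxl1, Mfap4, Mfap5 and Ltbp4, among 21938 protein-coding genes of the GENCODE M21 annotation. Open chromatin was mapped around them by DNase-seq, which sequences the ends of DNA fragments that the nuclease DNase I releases from nuclei. The tissue was whole urinary bladder of female mice of strain B6CASTF1/J at 4 days of age, a cross of the C57BL/6J and CAST/EiJ strains. There was 1 group, with no treatment named in the labels, and 2 biological replicates of 1 library each, so no contrast between conditions existed. Per the labels the replicates are differently numbered females that carry the same donor identifier, so part of the spread between them may be technical. Each gene was read at its promoter (a peak within 500 bp of any annotated transcription start), in its introns, and at distal peaks up to 100 kb away for which it was the nearest protein-coding gene. Overlapping peaks of the replicates were merged into regions, and regions with peaks from both are called shared. The 10 genes had 54 of the 45827 shared regions of these 3 classes, of which 15 were promoter, 25 intronic and 14 distal regions. In the single replicates they had regions with a peak at 93 places in replicate 1 and 102 in replicate 2.

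Elastic fibres let the bladder wall stretch as it fills and recoil as it empties. Their core is elastin, secreted as soluble tropoelastin, laid down on a scaffold of fibrillin microfibrils and joined into an insoluble network by lysyl oxidases, which oxidise lysine side chains. Fibulins and latent TGF-beta binding proteins bring tropoelastin and the crosslinking enzymes to the scaffold. Smooth muscle cells and fibroblasts are the main makers of these proteins, and much of the elastin of an organ is laid down around birth.

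The sequencing depth is unknown here. The peak lists held 96518 peaks in replicate 1 and 122870 in replicate 2. Peak height, the signal that the authors deposited, has no stated scale. Every height was a whole number of steps of 0.00466 in replicate 1 and 0.00417 in replicate 2, within 0.02 steps. Intervals given below are exact 95% Poisson intervals on those steps, which cover counting error only. They take 1 step as 1 independent count, which the sources do not state. Among marker genes, 7 of 7 for smooth muscle and 5 of 6 for fibroblasts had promoters open in both replicates, as did 2 of 6 for urothelium, 3 of 4 for endothelium and 2 of 3 for mesothelium. Of the 4 leukocyte genes (Ptprc, Csf1r, Adgre1 and Spi1) and the 4 hepatocyte genes, 0 had one in either replicate. Over all protein-coding genes, 62.3% had a promoter open in both replicates. Away from promoters, the leukocyte genes together had 3 shared intronic and 2 shared distal regions. The urothelium genes had 6 and 4, and the hepatocyte genes 0 and 1. In whole tissue, fewer cells of a type with an open site and less opening per cell cannot be told apart.

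The sequences of 6 regions that carry the main observations are given first, 5′ to 3′ on the strand of the gene, from the C57BL/6J reference genome (GRCm38, the mm10 assembly, RefSeq), which may differ from the CAST/EiJ copy in these animals. They are the tallest Eln promoter region, the last 300 bp of the Mfap4 promoter region upstream of the first exon, the tallest and the second tallest Ltbp4 intronic regions, the tallest Fbln1 intronic region and the only shared region of Mfap5. Capitals mark bases that lay in a footprint, a short protected stretch inside a peak, in both replicates.
Eln promoter, chr5:134747561-134747800 (-): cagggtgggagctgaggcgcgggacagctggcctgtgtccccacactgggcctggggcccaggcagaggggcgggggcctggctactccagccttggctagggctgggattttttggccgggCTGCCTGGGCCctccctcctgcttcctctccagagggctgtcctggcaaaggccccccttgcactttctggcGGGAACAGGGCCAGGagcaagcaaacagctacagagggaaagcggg
Mfap4 promoter, chr11:61485131-61485430 (+): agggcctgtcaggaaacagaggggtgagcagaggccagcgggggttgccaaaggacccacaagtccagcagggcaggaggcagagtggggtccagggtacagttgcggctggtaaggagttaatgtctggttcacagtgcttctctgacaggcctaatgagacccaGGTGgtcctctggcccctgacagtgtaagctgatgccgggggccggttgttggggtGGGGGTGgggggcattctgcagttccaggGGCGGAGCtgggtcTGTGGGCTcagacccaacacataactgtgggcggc
Ltbp4 intronic, chr7:27330881-27331140 (-): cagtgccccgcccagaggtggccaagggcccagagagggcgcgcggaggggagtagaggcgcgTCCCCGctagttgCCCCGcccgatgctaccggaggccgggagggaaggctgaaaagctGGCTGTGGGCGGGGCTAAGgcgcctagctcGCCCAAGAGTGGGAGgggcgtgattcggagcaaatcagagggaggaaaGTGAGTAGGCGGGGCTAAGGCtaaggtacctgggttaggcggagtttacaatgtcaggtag
Ltbp4 intronic, chr7:27335981-27336180 (-): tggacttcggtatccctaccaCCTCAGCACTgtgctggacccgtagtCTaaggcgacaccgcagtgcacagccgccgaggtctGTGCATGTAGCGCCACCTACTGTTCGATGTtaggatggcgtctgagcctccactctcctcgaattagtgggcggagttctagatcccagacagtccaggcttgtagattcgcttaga
Fbln1 intronic, chr15:85266821-85267000 (+): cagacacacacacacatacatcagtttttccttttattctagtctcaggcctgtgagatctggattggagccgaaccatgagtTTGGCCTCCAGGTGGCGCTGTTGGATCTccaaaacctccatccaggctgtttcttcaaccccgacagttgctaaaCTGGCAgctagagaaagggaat
Mfap5 intronic, chr6:122508561-122508760 (+): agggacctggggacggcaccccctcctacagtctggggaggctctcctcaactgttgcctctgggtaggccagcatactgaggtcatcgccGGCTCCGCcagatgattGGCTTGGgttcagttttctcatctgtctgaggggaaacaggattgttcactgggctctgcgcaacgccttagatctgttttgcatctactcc

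Open promoters were nearly universal in the group and low in height. A promoter peak was found in both replicates at 9 of 10 genes, against 62.3% of all protein-coding genes, and Mfap5 was the exception. In replicate 1 the median height of the 9 promoters was 1.18, and in replicate 2 it was 1.04, against 2.57 and 1.87 over all 13670 genes whose promoter was open in both. Eln alone lay above the middle of that distribution, with 53.5% of open promoters lower, while for the other 8 between 15.1% and 39.2% were lower. In replicate 1 alone 65.4% of all genes had such a peak, and in replicate 2 alone 64.7%, and the same 9 genes had one in each.

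**Figure D1:**
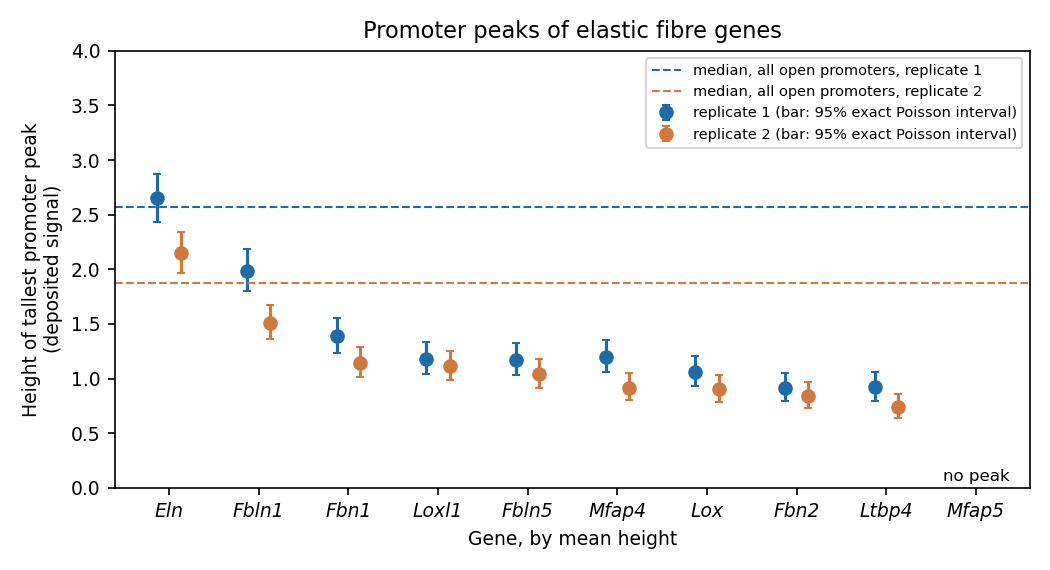
Height of the tallest promoter peak of each gene (deposited signal) in each replicate, with exact 95% Poisson intervals, and dashed lines at the medians over all open promoters. Eln stands highest at 2.65 and 2.15, Ltbp4 has the lowest mean among the open ones at 0.922 and 0.742 (in replicate 1 Fbn2 is lower, at 0.917), and Mfap5 has no peak.

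The core protein of the fibre had the tallest promoter. Eln (ENSMUSG00000029675.12, chr5:134702593-134747323, minus strand) encodes tropoelastin. Its tallest promoter peak had a height of 2.65 in replicate 1 (interval 2.44 to 2.88) and 2.15 in replicate 2 (1.97 to 2.35), a mean of 2.40 ± 0.352 (SD, n = 2). This region, printed above, was centred 353 bp upstream of the start of the main protein-coding transcript and held 4 footprints in replicate 1 and 3 in replicate 2. Another promoter region, just downstream of that start and over the starts of Eln-202 and Eln-203, was lower, at 0.885 and 0.655. A further promoter peak, of 0.796 in replicate 2 alone, stood at the internal start of the transcript Eln-205. The interval of the tallest region did not overlap that of Fbln1, the next gene, in either replicate, with a step taken as 1 count. The means of Eln and Fbln1 differed by more than the larger SD of their replicates (n = 2). Eln also had the most distal regions, 7 shared regions between 1.12 kb and 50.7 kb upstream, where 2.49% of all genes had 5 or more. Their heights were between 0.573 and 1.16 in replicate 1 and between 0.609 and 0.988 in replicate 2. The tallest of them by mean height, 41.1 kb upstream, reached 1.16 and 0.988. In the last of its 36 introns stood a region of 1.35 and 0.805, and in the first intron one of 0.694 and 0.513.

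The fibrillin and microfibril genes had modest promoters and few other regions. Fbn1 (chr2:125300594-125507993, minus strand) and Fbn2 (chr18:58008623-58210487, minus strand) encode the fibrillins, the backbone of microfibrils, and Fbn2 is best known for its role in development. The Fbn1 promoter had 1.39 in replicate 1 and 1.14 in replicate 2, a mean of 1.26 ± 0.173. That peak lay at the starts of the transcripts Fbn1-201 and Fbn1-203, while the start of Fbn1-202, the most upstream one, had none in either replicate. A smaller promoter region of 0.889 and 0.688 also overlapped the promoter of the neighbouring gene Gm9913, so it cannot be given to Fbn1 alone. The Fbn2 promoter peak had 0.917 and 0.842, and this gene had 3 separate promoter regions. In both genes a single intronic region was shared. It stood in intron 6 of 65 of Fbn1 at 0.438 and 0.592. In Fbn2 it stood in intron 55 of 64, 177 kb from the most upstream start, at 1.28 and 1.05. The Fbn2 region was thus taller than the Fbn2 promoter in both replicates. Fbn1 also had a distal region 8.83 kb upstream, at 0.913 and 0.730. Fbn2 had no shared distal region, but 1 region in its exons, of 0.321 and 0.421, which is counted in no class.

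Mfap4 and Mfap5, both of which bind to microfibrils, differed in their promoters. Mfap4 (chr11:61485431-61488900, plus strand), a fibrinogen-related protein of elastic fibres, had a promoter height of 1.20 in replicate 1 and 0.917 in replicate 2, a mean of 1.06 ± 0.201. In the shorter of the authors' peak lists, taken here as the stricter ones, this promoter was not called in both replicates. Its promoter region was 940 bp wide, and the sequence printed above is the 300 bp just upstream of the gene. One GC box of that sequence had 5 of its 6 bases in a footprint of both replicates. Mfap4 had 1 intronic region, of 1.13 and 0.809, in the last of its 4 introns. Mfap5 (chr6:122505845-122529290, plus strand) encodes a small fibrillin-binding glycoprotein. It had no peak within 500 bp of any of its 5 starts, and no stretch of bases there was listed at a false discovery rate of up to 0.05 in either replicate. Of the 7057 genes with no promoter peak in either replicate, 1.87% had a listed stretch near a start in replicate 1 and 1.66% in replicate 2. The only shared region of Mfap5 was intronic, 2.81 kb downstream of its most upstream start, with 0.447 in replicate 1 and 0.809 in replicate 2. Of the annotated transcripts, only Mfap5-204 starts upstream of that region. The others start at chr6:122513583 or further downstream, so for them the region lies upstream of the start and in no intron. The region was higher in replicate 2 by 0.86 on the log2 scale, and its footprints numbered 2 in replicate 1 and 4 in replicate 2. Of the 54 shared regions, 45 were lower in replicate 2, and this region was not one of them.

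The adapters Fbln1, Fbln5 and Ltbp4 differed widely in their introns, with tall regions at Fbln1 and Ltbp4 and low ones at Fbln5. Fbln1 (chr15:85205949-85286535, plus strand) encodes fibulin-1, which binds elastin and other matrix proteins. Its promoter had 1.98 in replicate 1 (1.80 to 2.18) and 1.51 in replicate 2 (1.36 to 1.67), a mean of 1.75 ± 0.335, and stood second among the 9 open ones. Over all genes, of any length and with a median span of 17.4 kb, 1.94% had 6 or more shared intronic regions. Fbln1 spans 80.6 kb and had 7 shared intronic regions. The tallest lay in the last intron, 61 kb from the most upstream start, at 2.80 and 1.51, with 96% of all intronic regions lower. Another, in intron 7, had 2.38 and 1.70, with 95.2% lower. The other 5 ranged from 0.684 to 1.00 in replicate 1 and from 0.680 to 1.08 in replicate 2. Fbln5 (chr12:101746565-101819055, minus strand) encodes fibulin-5, which binds tropoelastin and cell-surface integrins and guides fibre assembly. The Fbln5 promoter had 1.17 and 1.04, a mean of 1.11 ± 0.0956, and a second promoter peak of 0.680 was called in replicate 1 alone. Its 2 shared intronic regions were low, at 0.475 and 0.417 in intron 9 and at 0.424 and 0.467 in intron 6.

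Ltbp4 had the tallest regions of the group and the open promoter of lowest mean height, although Fbn2 was lower in replicate 1. Ltbp4 (chr7:27305136-27337692, minus strand) encodes a latent TGF-beta binding protein that is needed for fibulin-5 and elastin to assemble. The region printed above from intron 4 of 32 reached 4.20 in replicate 1 and 3.04 in replicate 2, a mean of 3.62 ± 0.821, with 99.3% of all intronic regions lower. The region in intron 1, 1.61 kb downstream of the most upstream start, had 4.04 and 2.18, a mean of 3.11 ± 1.31. A further region of intron 4 had 3.27 and 2.06, and one in intron 6, of which 111 bp were exonic, had 3.03 and 2.05. For each of these 4 regions between 97.6% and 99.3% of all intronic regions were lower, and each was taller than the Ltbp4 promoter in both replicates. That promoter peak had 0.922 and 0.742, a mean of 0.832 ± 0.127, and stood only within 500 bp of the internal starts of the transcripts Ltbp4-206, Ltbp4-207 and Ltbp4-209, about 27.1 kb downstream of the most upstream start. It was not called in both replicates in the stricter list. No peak and no listed stretch was found within 500 bp of the most upstream start, or of the starts of Ltbp4-203, Ltbp4-204, Ltbp4-205 and Ltbp4-210. With a promoter window of 1000 bp, the height of Ltbp4 became 2.66. The window then took in the further region of intron 4 named above, 793 bp downstream of a start, which is 1 of those 4 regions. Past the end of the gene stood 3 distal regions, the nearest at 1.83 and 1.19.

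**Figure D2:**
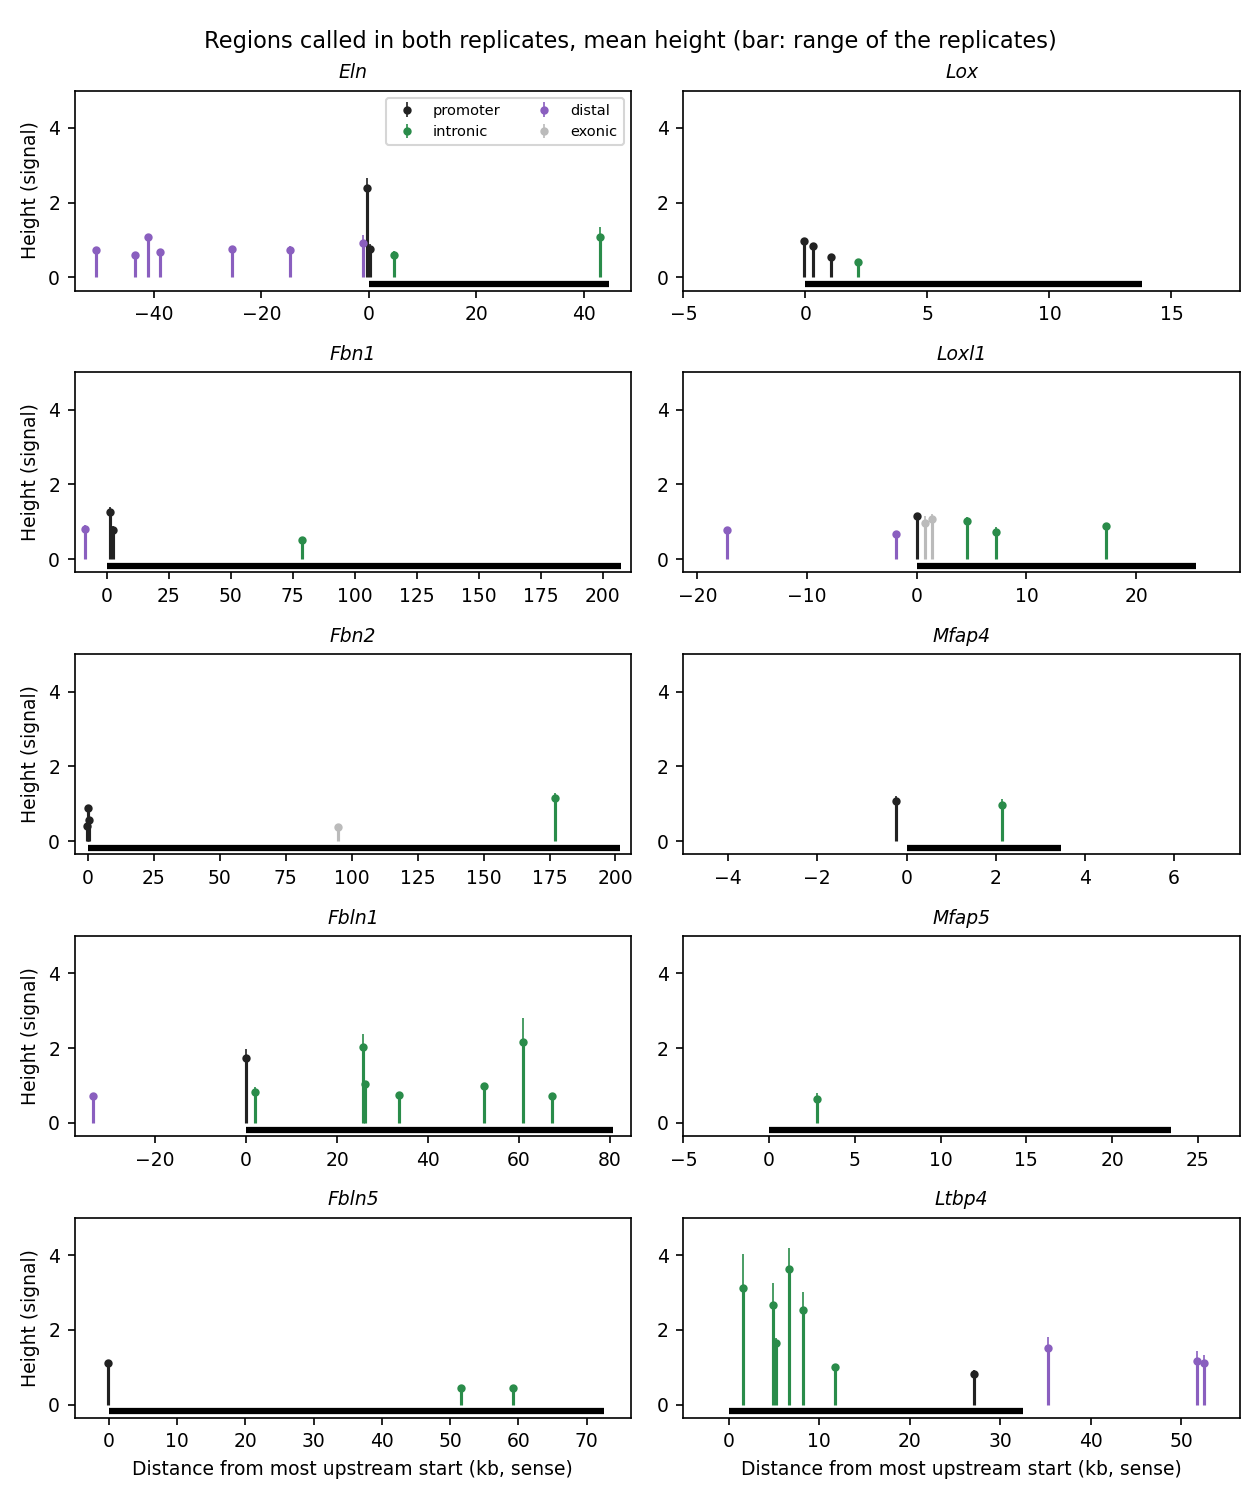
Shared regions of each gene by distance from its most upstream start (kb, in the direction of the gene) and height (deposited signal), as points at the mean with a thin bar for the range of the replicates. The black bar is the gene, and intronic regions of Ltbp4 reach a mean of 3.62.

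The crosslinking enzymes had promoters of a similar height. Lox (chr18:52516067-52529867, minus strand) and Loxl1 (chr9:58287738-58313186, minus strand) encode lysyl oxidases, and Loxl1 is linked to elastin maintenance in adult tissue. The Lox promoter had 1.06 in replicate 1 and 0.905 in replicate 2, a mean of 0.983 ± 0.111, with 3 promoter regions centred between 49 bp upstream and 1.04 kb downstream of its most upstream start. The Loxl1 promoter had 1.18 and 1.11, a mean of 1.15 ± 0.0491, in a region of 760 bp. Lox had a single low intronic region of 0.452 and 0.392. Loxl1 had 3, of which the tallest, in intron 1, had 1.12 and 0.938. It also had distal regions 1.9 kb and 17.3 kb upstream, of 0.698 and 0.655 and of 0.810 and 0.730, and 2 regions in its exons, which were counted in no class.

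In the order of mean promoter heights, Eln was followed by Fbln1, Fbn1, Loxl1, Fbln5, Mfap4, Lox, Fbn2 and Ltbp4. Eln and Fbln1, and Fbln1 and Fbn1, had intervals that did not overlap in either replicate. From Fbn1 down, neighbours in the order had overlapping intervals in both replicates. Their means differed by less than the larger SD of each pair, though not always by less than the smaller.

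**Figure D3:**
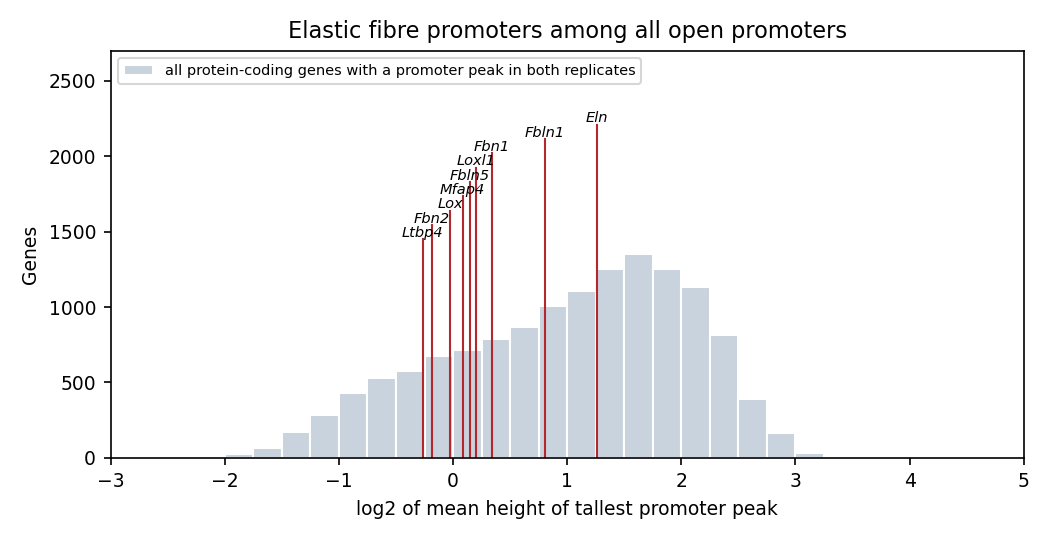
Number of protein-coding genes with a promoter peak in both replicates by log2 of the mean height of the tallest promoter peak, with lines at the 9 elastic fibre genes. Eln, with a mean of 2.40, stands near the middle and the other 8 stand to its left.

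All 10 genes had at least 1 shared intronic region, against 23.9% of all protein-coding genes. The genes are long, with a median span of 38.6 kb against 17.4 kb over all genes, and the share of all genes with such a region differed with span. Among genes of at least 20 kb, a boundary set after the values were seen, 8 of 8 had one, against 42.4% of all genes of that length. With an open promoter required as well, it was 7 of 7, against 44.9%. Of the 2 shorter genes, Lox and Mfap4, both had one, against 7.89%. At least 1 shared distal region was found at 5 of 10 genes (Eln, Fbn1, Fbln1, Loxl1 and Ltbp4), against 32.1%. In a comparison also chosen after the values were seen, the tallest intronic or distal region exceeded the tallest promoter peak in both replicates at 3 of 9 genes (Fbn2, Fbln1 and Ltbp4), against 25.4% of the 7338 genes that had both. For intronic regions alone it was the same 3 of 9 genes, against 22.6%. The median height was 0.996 over the 25 intronic regions, against 0.662 over all intronic regions. For distal regions it was 0.758 against 0.685, and for promoter regions 0.880 against 1.43. Of the 25 intronic regions, 7 were of Fbln1 and 6 of Ltbp4, so their median describes these genes more than the group. Those of the other genes had mean heights between 0.422 and 1.16.

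Most regions held footprints. Of the 54 shared regions, 51 held a footprint in both replicates, against 77.3% of all shared regions. Taller regions hold footprints more often, and the share over all shared regions was 40.1% in the lowest of 4 equal height classes and 99.1% in the highest. Among the genes described here 4 regions fell in the lowest class, of which 3 held a footprint in both, and 9 in the highest, of which 9 did. In the lower of the middle classes 17 of 18 did, against 76.6% of all shared regions. In the upper of them 22 of 23 did, against 93.2%. The regions held 162 footprints in replicate 1 and 130 in replicate 2, with 82 of each overlapping a footprint of the other replicate. The exceptions were an Eln distal region 14.6 kb upstream, an intronic region of Fbln5 and the Ltbp4 promoter.

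Letters matching known motifs were searched on both strands in the central 150 bp of each region. The E-box CAGCTG was found in 10 of the 39 intronic or distal regions, or 25.6%, against 14.8% of all such regions, and in 2 of 15 promoter regions against 9.26%. The GC box GGGCGG was in 6 of 15 promoter regions, or 40%, against 52%. The NFI site TTGGCA was in 6 of 39 intronic or distal regions, or 15.4%, against 11.6%. The TEAD site GGAATG was in 2 of 39, against 9.22%, the RUNX site TGTGGT in 2, against 11.2%, and the GATA site AGATAA in 2, against 3.94%. The AP-1 site TGANTCA was in 0 of 39, against 6.09%. The other motifs were in 0 regions of either class, and most were rare over all regions. The ETS site CCGGAAG was in 10% of all promoter regions and 1.54% of all intronic or distal ones, and the TATA box TATAAA in 1.6% and 3.21%. The forkhead site TGTTTAC was in 0.927% and 1.59%, the CArG box in 0.537% and 0.752%, and the SMAD site GTCTAGAC in 0.0896% and 0.145%. A match is a description of the letters only.

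After the sequences were seen, the core of the CTCF motif, AGNNGGCGC, was added to the search. CTCF is a zinc-finger protein that binds at chromatin loop boundaries. A match was found in 8 of 54 regions, or 14.8%, against 10.5% of all regions of the 3 classes. In 6 of the 8 the match overlapped a footprint by at least 4 bp in both replicates, against 67% of all regions with a match. The 8 include regions printed above, which were seen before the motif was chosen. These shares therefore cannot test for an excess of the motif. The tallest Fbln1 intronic region and the Ltbp4 intron 1 region, both printed above, held all 9 bases of the match in capitals. The intronic region of Fbn2 also held a match. At Fbn2 and Ltbp4 a region with a match was taller than the promoter in both replicates. At Fbln1 the tallest intronic region had the height of the promoter, 1.51, in replicate 2, and that promoter region held a match too. The Fbln1 region in intron 7, which was taller than the promoter in both, held no match. The tallest Ltbp4 region, in intron 4, held a match outside its central 150 bp, with 0 of 9 bases in capitals.

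The difference between the replicates at these genes was close to that over all regions. The median log2 ratio of replicate 2 to replicate 1 was -0.28 over the 54 regions (SD 0.32), against -0.31 over all regions of the 3 classes (SD 0.39). Replicate 2 was lower at 45 of 54 regions, against 77.8% of all. The largest differences were a log2 ratio of -0.89 at the Ltbp4 intron 1 region and at the tallest Fbln1 intronic region, and 0.86 at Mfap5 in the other direction.

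**Figure D4:**
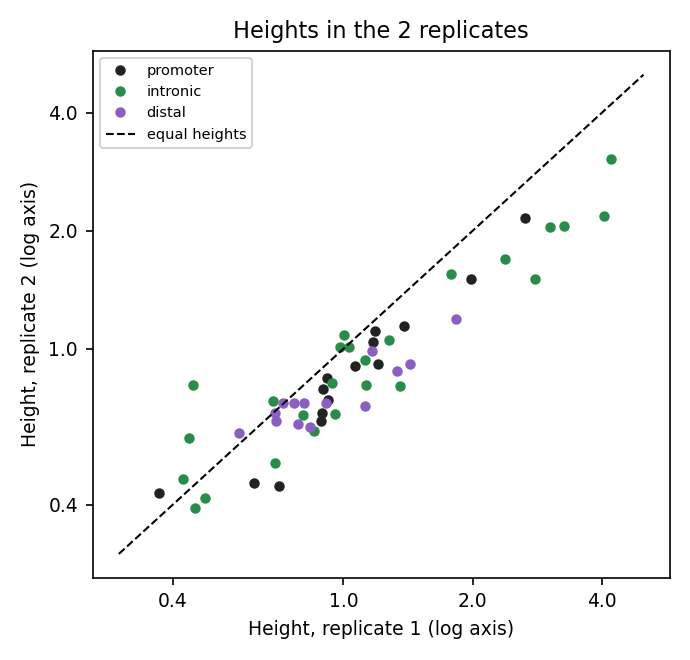
Height of the 54 shared regions in replicate 1 and replicate 2 (log axes, deposited signal), coloured by class, with a line at equal heights. Of the points, 45 lie under the line, and the Mfap5 intronic region stands above it at 0.447 and 0.809.

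Regions called in a single replicate numbered 39 in replicate 1, with a median height of 0.186, and 48 in replicate 2, with a median of 0.215. Of the regions of these genes in replicate 1, 58.1% were shared, against 58.4% of all its peaks that overlapped a peak of the other replicate, and in replicate 2 it was 52.9%, against 46.6%. Most were distal and grouped. Upstream of Eln, 22 stood between 51.4 and 64.5 kb in replicate 1, with heights of 0.107 to 0.331, and upstream of Fbln5, 26 stood between 0.646 and 13.2 kb in replicate 2, with heights of 0.0667 to 0.454. Upstream of Fbn1, 7 stood between 53.0 and 58.3 kb in replicate 1, with heights of 0.0838 to 0.247. Those from 55.3 kb on lay within the span of another protein-coding gene. Of the regions in 1 replicate alone, 4 of 39 and 3 of 48 had a stretch listed in the other. With replicate 1 alone the genes had 46 distal regions and with replicate 2 alone 50, against 14 shared.

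Further genes of elastic fibre biology were read as lists. Among 19 further elastic fibre and microfibril genes, 17 had an open promoter in both replicates, all but Bgn, which had one in replicate 1 alone at 0.787, and Vtn. The highest was Adamts17, a secreted metalloprotease, at 3.72 and 2.25. Ltbp2, which binds fibrillin microfibrils, had 2.84 and 2.05, and Efemp1, encoding fibulin-3, had 0.666 and 0.571. Of 4 further crosslinking genes, 3 did, all but Loxl2, with Loxl4 at 0.889 and 0.855 and 20 shared distal regions. Of 10 genes for elastin breakdown and its inhibitors, 5 did (Mmp2, Mmp14, Timp1, Timp2 and Timp3). Of the same list, Mmp9, Mmp12, Elane, Ctsk and Ctss had none in either replicate. Over the 33 genes together, 25 had one, or 75.8%, against 62.3% of all genes, and their median height was 1.39, against 2.23 over all open promoters.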

How the data were processed

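DNase-seq was measured in 2 samples of 1 group. Per the labels and the deposited descriptions, peaks, false discovery rates and footprints of a sample were made from its own mm10 alignments. Not given in the sources used here are the aligner, the callers, their versions and their cut-offs. Peak height is the signal that the authors deposited, and its scale is not given. The rate lists hold, as a p-value that the authors deposited, the false discovery rate of each stretch, a q-value of up to 0.05. The deposited p-value of the footprint lists was 0.01 throughout, so footprints were not ranked. The longer of the 2 peak lists was used. The shorter, told apart by its number of peaks and taken as the stricter list, served as an alternative. No read counts are given.

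Peaks were merged where they overlapped by at least 1 bp. A region was intronic if its centre lay in the gene outside its exons, and distal if it lay outside the gene and up to 100 kb from its nearest start. Heights were not tested, since there is 1 group. Coordinates are mm10, 1-based. All 44 transcripts of the 10 genes in GENCODE M21 were identical to the genome used at their coordinates. The genes, lists, motifs and thresholds were chosen with earlier results of these data known. All 10 genes are named, and of other genes only those of the lists and a neighbour that shares a promoter window. Python 3.11.15 with numpy 2.4.6, pandas 2.3.3 and scipy 1.17.1 was used, figures used matplotlib 3.10.9, and overlaps were checked with bedtools 2.31.1. Region building was tested on simulated data. The alternatives were the stricter list, each replicate alone, an overlap of at least 0.5 of the shorter peak, a promoter window of 1000 bp, a distal limit of 50 kb, the nearest gene by its span, introns outside all exons and footprints that overlap a peak by 1 bp.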

Additional observations from a re-analysis of the deposited data

How the results depend on the processing

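The number of promoters open in both replicates (9 to 7 of 10) and the median promoter height (1.04 to 1.18) stayed within 1.5 times, or within the spread of the replicates, under the alternatives tried, as did the count among the other elastic fibre genes (23 to 27). With the stricter list, the promoters of Mfap4 and Ltbp4 were no longer called in both replicates, and 55% of all genes had one in both replicates. The counts of other regions moved. With the stricter list, intronic regions numbered 12 and distal regions 4, where the longer list gave 25 and 14. A footprint was held by 24 of 27 shared regions with the stricter list and by 51 of 54 with the longer. With 1 replicate left out in turn, intronic regions numbered 31 to 40 and distal regions 46 to 50. Regions were then built anew from the remaining replicate. A footprint was held by 83 of 108 without replicate 1 and by 77 of 93 without replicate 2. Requiring 1 replicate in place of both is by construction the looser rule. The cause of the other moves was not tested. The height of the Ltbp4 promoter became 2.66 with a window of 1000 bp. No paired analysis was possible because there is 1 group. Depth is not given, so a missing peak, as at Mfap5, means that none was called.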
